A study of Mus musculus with 6 samples.

Results

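Regulators of G-protein signaling (RGS proteins) were described in the progeny of CD4_N cells (naive CD4 T cells) that lacked Foxo1 or not. The family was taken as 10 named members, Rgs1, Rgs2, Rgs3, Rgs10, Rgs11, Rgs12, Rgs14, Rgs16, Rgs18 and Rgs19, matched by gene symbol. Of these, 9 had a row in the deposited normalized table of 13564 genes, and all 10 were among the 55487 genes of the count files. Rgs18 was the member without a row in the normalized table. Rgs9, which had a row there but was not on the list, is described beside its relative Rgs11.

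RGS proteins shorten signals from G-protein-coupled receptors. An activated receptor loads the G alpha subunit with GTP, and the RGS domain speeds up the hydrolysis of that GTP, after which G alpha and G beta-gamma come together again and signaling stops. In lymphocytes the chemokine receptors and the receptors for sphingosine 1-phosphate signal through Gi proteins, and RGS proteins limit how long a cell responds to these guidance cues. The family falls into subfamilies: the small R4 proteins (here Rgs1, Rgs2, Rgs3, Rgs16 and Rgs18), the R7 proteins that bind G beta 5 (Rgs11 and Rgs9), the R12 group (Rgs10, Rgs12 and Rgs14) and the RZ group (Rgs19).

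Foxo1TKO mice carry floxed Foxo1 alleles and a Cre recombinase driven by Cd4, which is also active in CD8 T cells because both lineages pass through a CD4-expressing stage, and Foxo1Ctrl mice carry the floxed alleles without Cre. Both genotypes were young adult C57BL/6J animals of a Foxp3-GFP background, and 3 libraries were made per genotype. Lymph node CD4_N cells, 50000 per culture according to the sample labels, were stimulated for 4 days with 0.1 µg per ml of an anti-CD3 antibody and 250000 splenocytes of CD3εKO mice, which lack T cells, as antigen-presenting cells. The study's methods give a larger number of T cells per culture. Whether splenocytes were removed before the RNA extraction is not given in the sources used here, nor is it given whether the libraries of a genotype came from separate animals, so that the p-values measure the spread between these libraries, which may be technical.

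The libraries held between 14783890 and 19675447 counts, and the 13691 genes that reached 10 counts in 3 or more of them were tested. Foxo1 itself had 85.4, 46.5 and 115 normalized counts in the Foxo1TKO libraries against 1529, 2285 and 1598 in the Foxo1Ctrl libraries, a log2 fold change of -4.45 (SE 0.36, adjusted p = 0.000195, edgeR quasi-likelihood test with Benjamini-Hochberg adjustment over all genes tested). Of 10 T cell markers Cd28 was lower, and their summed level was 10738 to 11148 CPM (counts scaled to the size of the library) in Foxo1TKO and 11478 to 12161 in Foxo1Ctrl libraries. Markers of some other cells differed more. The 10 B cell markers summed to 298 to 395 CPM in Foxo1TKO and 669 to 1248 in Foxo1Ctrl libraries, with 5 of 9 tested markers lower (Ighm, which made up most of the sum, and Ms4a1, Cd79a, Cd79b and Cd22) and none at 0 in every library. Without Foxo1TKO replicate 1, Foxo1Ctrl replicate 1 or Foxo1Ctrl replicate 3, 3 of these markers were called. Cd22 passed the filter through the Foxo1Ctrl libraries alone and was not tested when any of these was left out. When any Foxo1TKO library was left out, Cd22 was tested and not called. The 6 natural killer cell markers summed to 1652 to 2068 against 301 to 522, with Nkg7 and Eomes higher, which activated T cells can also express, and Klra8 at 0 throughout. Nkg7 made up most of this sum in both genotypes. Klrb1c was tested and not called, with 31.6 ± 15.3 normalized counts in Foxo1TKO and 51.3 ± 17.6 in Foxo1Ctrl libraries (SD). Ncr1 and Klra4 had too few counts to be tested. The 8 dendritic cell markers summed to 34.6 to 36.2 against 7.77 to 15.3, with Itgax higher and Cd209a at 0 throughout. This difference was that of Itgax, which passed the filter through the Foxo1TKO libraries alone, and the other 7 markers summed to 8.79 to 12.8 against 7.77 to 15.3 CPM. In such bulk libraries, fewer cells of a type and less RNA per cell cannot be told apart.

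A gene was called at an adjusted p under 0.05 with a change of over 1.5-fold. By this rule 5 of the 9 tested RGS members (55.6%) were called, where 23.0% of all genes tested were. The members were chosen with earlier results of these data known, so that this excess cannot be read as a trait of the family. The members that rose in Foxo1TKO cells were Rgs16 and Rgs10, 2 of 9 beside 11.1% of all genes. The members that fell were Rgs1, Rgs2 and Rgs11, 3 of 9 beside 11.8% of all genes. Values of the genotypes did not overlap in 7 of the 9 members, with Foxo1TKO above in 3 and below in 4, against 42.7% of all genes tested. The median log2 fold change of the 9 members was -0.21, beside 0.011 over all genes, and the median size of the change regardless of sign was 0.70 beside 0.46. Without Foxo1TKO replicate 2 or without replicate 3 of the same genotype 3 members were called, and the calls over all genes dropped from 3144 to 1590 without Foxo1TKO replicate 2 and to 1848 without Foxo1Ctrl replicate 1.

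**Figure D1:**
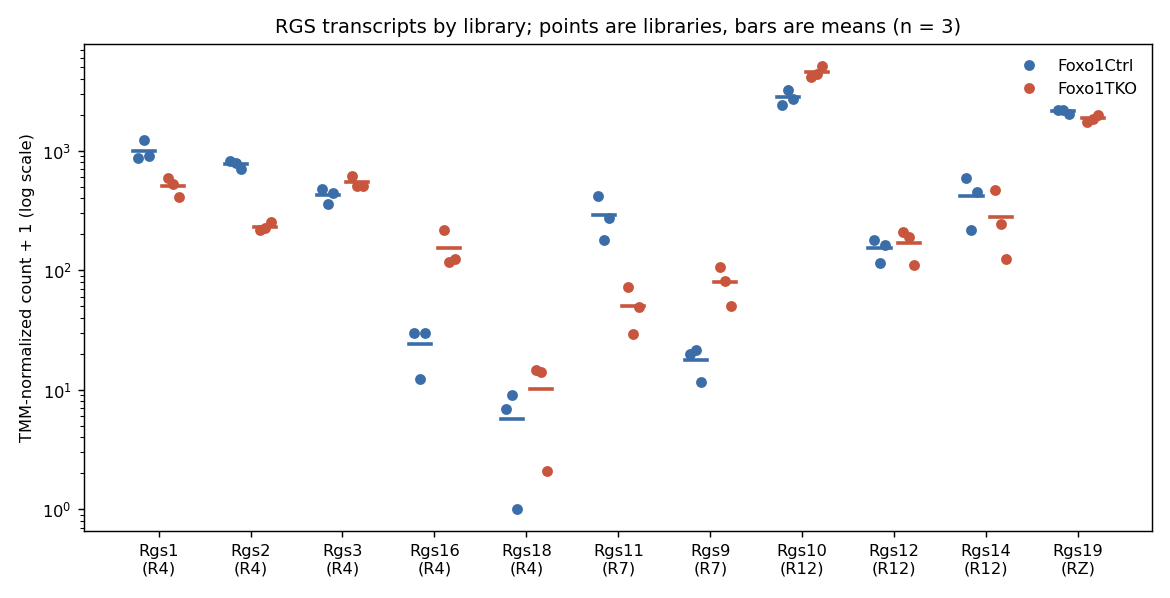
Normalized count plus 1 (log axis) of each RGS member and of Rgs9 in every library, with the Foxo1Ctrl libraries in blue, the Foxo1TKO libraries in red and a bar at each mean of 3. Rgs16 lay at 118 to 217 in the Foxo1TKO libraries against 11.4 to 29.1 in the Foxo1Ctrl libraries, and Rgs11 at 28.1 to 71.8 against 177 to 416, while the genotypes overlapped for Rgs12, Rgs14 and Rgs18.

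Within the R4 subfamily, members moved in both directions. Rgs16, a small GTPase-activating protein for Gi and Gq subunits that activated lymphocytes express, lies on chromosome 1 (GRCm38, chr1:153740349-153745468, plus strand) and has a single annotated transcript. It had 217, 118 and 123 normalized counts in the Foxo1TKO libraries and 28.6, 11.4 and 29.1 in the Foxo1Ctrl libraries. Every Foxo1TKO library was above every Foxo1Ctrl library, and the first Foxo1TKO library stood highest. The means were 153 ± 55.9 and 23.0 ± 10.1 (SD, n = 3 each), a 6.38-fold difference and a log2 fold change of 2.67 (SE 0.43, 95% confidence interval 1.68 to 3.67, adjusted p = 0.00378, edgeR with Benjamini-Hochberg adjustment). Rgs16 was the tested member with the largest rise and was called in all 6 fits that left out 1 library. The antisense gene Gm28513, whose exons overlap it, had 3 counts in the third Foxo1Ctrl library and 0 in the other five.

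Rgs2, an R4 protein with a preference for Gq, fell. It lies at chr1:143999338-144004161 on the minus strand. It had 216, 225 and 253 normalized counts in the Foxo1TKO libraries and 817, 796 and 710.2 in the Foxo1Ctrl libraries. The genotypes were far apart and the libraries of each were close together. The means were 231 ± 19.7 and 774 ± 56.5 (SD, n = 3 each), 3.34-fold lower in Foxo1TKO, with a log2 fold change of -1.74 (SE 0.17, 95% confidence interval -2.13 to -1.35, adjusted p = 0.000425, edgeR with Benjamini-Hochberg adjustment). The call held in all 6 fits that left out 1 library, with log2 fold changes between -1.81 and -1.69.

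The RefSeq promoter table (GRCm38.p6) held windows for 6 of the 10 members, Rgs2, Rgs3, Rgs10, Rgs12, Rgs16 and Rgs19, with 10 start sites between them. The 250 bases before the start are shown for Rgs16 and Rgs2, the R4 members that moved most in either direction. They are also shown for the upstream start of Rgs3, an R4 member that was not called. That window was the only one of the 10 with a match to a sequence searched for below. Each window was searched on both strands for GTAAACA, the sequence that Foxo factors are known to bind, and for its shorter core TAAACA, which every GTAAACA match also contains. Capitals mark a match.
Rgs16, chr1:153740103-153740352, plus strand: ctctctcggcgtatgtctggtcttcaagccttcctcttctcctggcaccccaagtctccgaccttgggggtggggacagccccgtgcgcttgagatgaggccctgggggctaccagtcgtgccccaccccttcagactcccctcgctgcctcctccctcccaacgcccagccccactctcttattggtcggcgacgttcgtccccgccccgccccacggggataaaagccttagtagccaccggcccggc
Rgs2, chr1:144004150-144004399, minus strand: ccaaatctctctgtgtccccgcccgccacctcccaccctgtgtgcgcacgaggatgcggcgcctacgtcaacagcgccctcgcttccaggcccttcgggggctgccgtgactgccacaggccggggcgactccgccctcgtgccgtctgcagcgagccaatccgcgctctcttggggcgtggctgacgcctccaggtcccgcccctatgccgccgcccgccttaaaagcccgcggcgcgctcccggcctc
Rgs3, chr4:62559597-62559846, plus strand: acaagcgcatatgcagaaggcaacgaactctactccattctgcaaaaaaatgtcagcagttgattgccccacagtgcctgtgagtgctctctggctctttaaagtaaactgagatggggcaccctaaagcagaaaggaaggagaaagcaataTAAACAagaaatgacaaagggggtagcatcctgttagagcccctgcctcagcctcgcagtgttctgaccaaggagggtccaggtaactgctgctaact
None of the 10 member windows held GTAAACA, which 3.17% of the 32851 windows in the table did, and 1 of the 10 held TAAACA, which 12.03% of all windows did. The match lay in the upstream Rgs3 window, where its first base is at position -98 from the start. The window of the downstream Rgs3 start, which is not shown, held no match. A match or its absence in these 250 bases is a description of the sequence and was not set against any binding data. The windows of Rgs16 and Rgs2 were 66.4% and 72.4% G or C, with 17 and 30 CG pairs. The upstream window of Rgs3 was 48.4% with 3 CG pairs, and its downstream window was 56.8% with 7. The medians over all windows were 52.4% and 6.

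Rgs1, which damps chemokine receptor signals in B and T cells, is a neighbour of Rgs2 on chromosome 1 (chr1:144242296-144249242, minus strand). It had 589.9, 528 and 411 normalized counts in the Foxo1TKO libraries and 867, 1229 and 906 in the Foxo1Ctrl libraries. The highest Foxo1TKO library lay below the lowest Foxo1Ctrl library. The means were 509.7 ± 90.9 and 1001 ± 199 (SD, n = 3 each), 1.96-fold lower in Foxo1TKO, with a log2 fold change of -0.97 (SE 0.21, adjusted p = 0.0138, edgeR with Benjamini-Hochberg adjustment). The call was lost without Foxo1TKO replicate 2 (adjusted p = 0.0621, edgeR) and without Foxo1TKO replicate 3 (adjusted p = 0.0519, edgeR), while the log2 fold change stayed between -1.09 and -0.79 in all 6 such fits. B cells can express Rgs1 and Rgs2, and the B cell markers given above were lower in the same libraries in which both were lower. The part of these markers in the fall of Rgs1 and Rgs2 was not tested.

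Rgs3, a larger R4 member with several long and short transcripts (chr4:62559847-62704001, plus strand), had 621, 507 and 509 normalized counts in the Foxo1TKO libraries and 477, 356 and 439.9 in the Foxo1Ctrl libraries. The genotypes did not overlap, with Foxo1TKO above. The log2 fold change of 0.36 (SE 0.19, 95% confidence interval -0.07 to 0.80) did not pass the test (adjusted p = 0.206, edgeR with Benjamini-Hochberg adjustment). Its estimated counts were not whole numbers, since some of its reads also fit other loci. Rgs18, known from platelets and other blood cells (chr1:144752683-144775435, minus strand), was at the edge of detection, with 16, 15 and 1 counts in the Foxo1TKO libraries and 5, 7 and 0 in the Foxo1Ctrl libraries. These ranges overlapped and the gene was not tested. The 9 platelet and megakaryocyte markers summed to 0.0606 to 1.00 CPM in Foxo1TKO and 0.633 to 1.64 in Foxo1Ctrl libraries, with Gp9, Gp1bb and Treml1 at 0 in every library.

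In the R7 subfamily, whose members carry a G gamma-like domain and are stable only with G beta 5, Rgs11 fell and Rgs9 rose. R7 proteins are best known from neurons and the retina. Rgs11 (chr17:26202951-26211324, plus strand) had 71.8, 28.1 and 48.3 normalized counts in the Foxo1TKO libraries and 416, 177 and 274 in the Foxo1Ctrl libraries. The genotypes did not overlap, although the libraries of each were spread widely. The means were 49.4 ± 21.9 and 289 ± 120 (SD, n = 3 each), 5.75-fold lower in Foxo1TKO, with a log2 fold change of -2.52 (SE 0.43, 95% confidence interval -3.52 to -1.52, adjusted p = 0.00505, edgeR with Benjamini-Hochberg adjustment). This was the largest fall among the tested members, and it was called in all 6 fits that left out 1 library. Arhgdig, on the opposite strand and overlapping its exons, had at most 4 counts in any library.

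Rgs9 (chr11:109225355-109298129, minus strand) had 106, 79.8 and 49.4 normalized counts in the Foxo1TKO libraries and 19.1, 20.6 and 10.7 in the Foxo1Ctrl libraries. The lowest Foxo1TKO library was above the highest Foxo1Ctrl library. The means were 78.6 ± 28.6 and 16.8 ± 5.35 (SD, n = 3 each), 4.52-fold higher in Foxo1TKO, with a log2 fold change of 2.18 (SE 0.41, adjusted p = 0.00758, edgeR with Benjamini-Hochberg adjustment). Leaving out any 1 library kept this call. In TPM, an abundance scaled for transcript length and depth, the ratio of Rgs11 to Rgs9 was 18.0 to 38.9 in the Foxo1Ctrl libraries and 0.692 to 1.61 in the Foxo1TKO libraries. Gnb5, which encodes G beta 5 and was singled out after its values were seen, had 45.7 ± 24.2 normalized counts in Foxo1TKO and 82.8 ± 27.8 in Foxo1Ctrl libraries (SD, n = 3 each), and this did not pass the test (log2 fold change -0.84, SE 0.47, adjusted p = 0.246, edgeR with Benjamini-Hochberg adjustment). Of the other 13 genes with an RGS name or an RGS-binding protein's name, none was tested, and 8 were at 0 in all libraries, among them Rgs4, Rgs5, Rgs7 and Rgs13. Rgs8 had 10 counts in the second and 2 in the first Foxo1Ctrl library and 0 in the rest. Rgs9bp, a membrane anchor of Rgs9, had 3, 3 and 5 counts in the Foxo1TKO libraries and 0, 2 and 0 in the Foxo1Ctrl libraries.

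**Figure D2:**
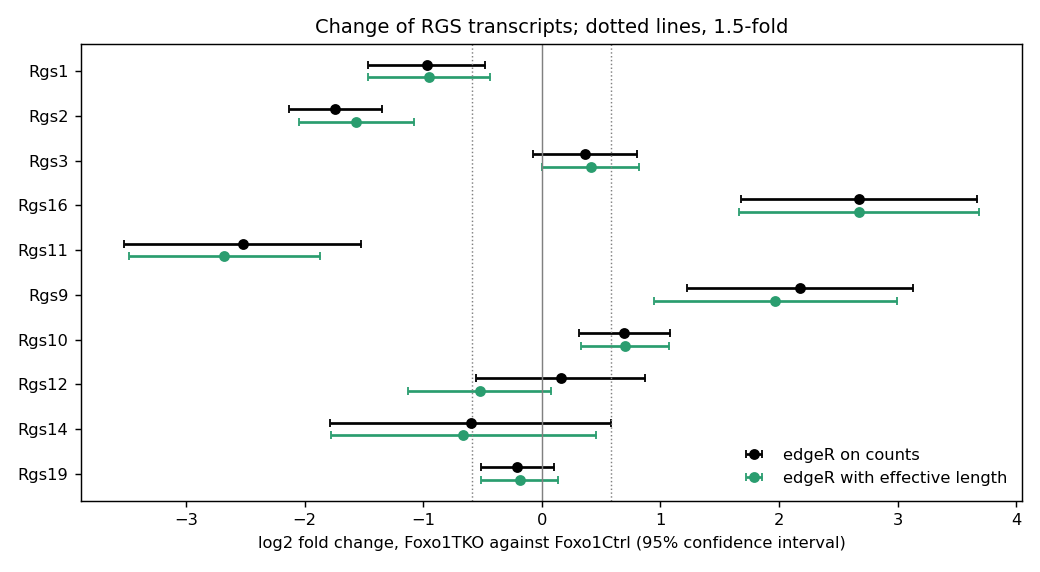
Log2 fold change of each tested RGS member and of Rgs9 in Foxo1TKO against Foxo1Ctrl libraries, with 95% confidence intervals, from the counts alone (black) and from counts corrected for effective length (green). The black and green points of each gene lay close together except for Rgs12, which was at 0.16 from the counts and at -0.53 with the correction.

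In the R12 subfamily, Rgs10 rose and Rgs12 and Rgs14 did not pass the test. Rgs10, a small member made of little more than the RGS domain and abundant in lymphocytes and macrophages (chr7:128373621-128418758, minus strand), had 4122, 4374 and 5124 normalized counts in the Foxo1TKO libraries and 2444, 3258 and 2701 in the Foxo1Ctrl libraries. All Foxo1TKO libraries were above all Foxo1Ctrl libraries. The means were 4540.0 ± 522 and 2801 ± 416 (SD, n = 3 each), 1.62-fold higher in Foxo1TKO, with a log2 fold change of 0.70 (SE 0.17, 95% confidence interval 0.31 to 1.08, adjusted p = 0.0193, edgeR with Benjamini-Hochberg adjustment). The change is near the 1.5-fold limit. The call was lost without Foxo1TKO replicate 2 (adjusted p = 0.0690), Foxo1TKO replicate 3 (0.0693), Foxo1Ctrl replicate 1 (0.0964) or Foxo1Ctrl replicate 3 (0.0741), all by edgeR, with log2 fold changes between 0.58 and 0.82 over the 6 fits. The macrophage and monocyte markers summed to 4.93 to 6.42 CPM in Foxo1TKO and 3.17 to 6.51 in Foxo1Ctrl libraries, with C1qa at 0 throughout.

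Rgs14, which joins an RGS domain to Ras-binding domains and a GoLoco motif that binds inactive Gi alpha (chr13:55369732-55384687, plus strand), had 468, 242 and 122 normalized counts in the Foxo1TKO libraries and 597, 217 and 452 in the Foxo1Ctrl libraries. The genotypes overlapped, and the libraries of each differed more between themselves than for any other tested member of this subfamily. The log2 fold change of -0.60 had a 95% confidence interval of -1.78 to 0.58 (SE 0.51, adjusted p = 0.444, edgeR with Benjamini-Hochberg adjustment), so that neither a fall nor no change could be told from these libraries.

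Rgs12, the largest member, with the same Ras-binding and GoLoco parts as Rgs14 (chr5:34949445-35039644, plus strand), had 209.6, 189 and 111 normalized counts in the Foxo1TKO libraries and 180.0, 113 and 163 in the Foxo1Ctrl libraries. The genotypes overlapped and the log2 fold change was 0.16 (SE 0.31, adjusted p = 0.751, edgeR with Benjamini-Hochberg adjustment). In the deposited normalized table the order was the opposite, with 165, 134 and 94.3 in the Foxo1TKO columns and 185, 181 and 198 in the Foxo1Ctrl columns, and all Foxo1TKO values were below all Foxo1Ctrl values. On that table the log2 fold change was -0.55 with a pseudocount of 1 (adjusted p = 0.171, limma), and with effective lengths as offsets it was -0.53 (adjusted p = 0.194, edgeR). Neither passed the test, so that no direction is given for Rgs12.

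The effective length is the mean length over a gene's transcripts that reads can come from, weighted by each transcript's estimated share, so that it moves when a gene's reads are assigned to other transcripts. For Rgs12 it was 2063, 2251 and 1851 bases in the Foxo1TKO libraries and 1545, 1010 and 1291 bases in the Foxo1Ctrl libraries. Every Foxo1TKO library had a longer estimate than every Foxo1Ctrl library. The means were 2055 ± 200.2 and 1282 ± 268 bases (SD, n = 3 each), a ratio of 1.60 (exact permutation test, two-sided, p = 0.1, the smallest that 3 against 3 libraries can give). Of the 9 tested members this was the only one whose effective lengths did not overlap between genotypes, a share near the 9.72% of all genes tested, and 48 of all 13691 genes had as large a ratio in this direction without overlap. Without Foxo1TKO replicate 1, 2 members were without overlap, and without Foxo1TKO replicate 2, 4 were. The share of all genes was not worked out for these sets, and 2 libraries against 3 overlap less easily than 3 against 3. The count files list 18 Rgs12 transcripts, whose annotated lengths run from 338 to 5472 bases, and Rgs12 had at most 248 counts in a library to share among them.

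The RefSeq table gives Rgs12 an upstream and a downstream start site, shown here because the effective lengths of Rgs12 did not overlap between genotypes. Neither window held a match to the Foxo sequence or its core.
Rgs12 upstream start, chr5:34949198-34949447, plus strand: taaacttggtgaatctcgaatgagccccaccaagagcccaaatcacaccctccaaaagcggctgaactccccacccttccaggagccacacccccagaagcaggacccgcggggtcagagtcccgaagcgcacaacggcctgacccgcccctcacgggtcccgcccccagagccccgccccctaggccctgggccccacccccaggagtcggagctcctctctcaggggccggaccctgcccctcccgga
Rgs12 downstream start, chr5:34998828-34999077, plus strand: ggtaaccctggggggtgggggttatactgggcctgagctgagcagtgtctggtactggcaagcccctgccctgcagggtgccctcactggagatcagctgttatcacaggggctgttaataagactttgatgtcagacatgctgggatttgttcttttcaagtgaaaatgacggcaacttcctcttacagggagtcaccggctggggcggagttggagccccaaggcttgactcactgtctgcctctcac
The upstream window was 68.4% G or C with 14 CG pairs, and the downstream window was 55.6% with 3 CG pairs. Which transcripts were used cannot be read from the values per gene.

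**Figure D3:**
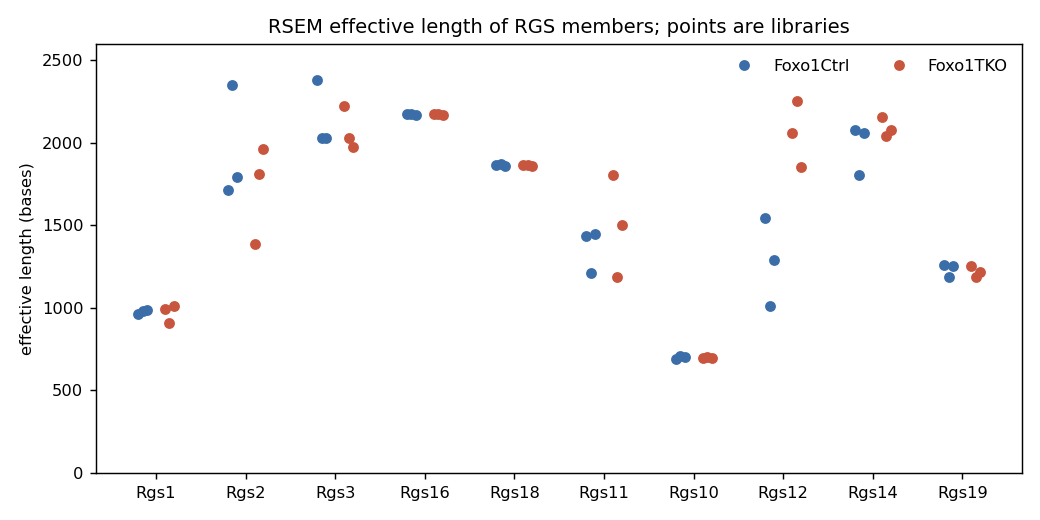
RSEM effective length in bases of each RGS member in every library, Foxo1Ctrl in blue and Foxo1TKO in red. For Rgs12 the Foxo1TKO libraries lay at 1851 to 2251 bases, all above the Foxo1Ctrl libraries at 1010 to 1545 bases, and for every other member the genotypes overlapped.

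Rgs19, the RZ member, a palmitoylated protein first known as GAIP for its binding to Gi alpha 3 (chr2:181688419-181693977, minus strand), had 1760, 1864 and 1980.0 normalized counts in the Foxo1TKO libraries and 2201, 2217 and 2050.2 in the Foxo1Ctrl libraries. The genotypes did not overlap, with Foxo1TKO below, but the gap was small. The log2 fold change was -0.21 (SE 0.13, 95% confidence interval -0.51 to 0.10, adjusted p = 0.305, edgeR with Benjamini-Hochberg adjustment), and a fall of over 1.5-fold, which is 0.58 on the log2 scale, lay outside that interval.

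Levels of different members can be compared in TPM, in which the length is accounted for. In Foxo1Ctrl libraries Rgs10 had the highest mean level at 255 ± 10.9 TPM, followed by Rgs19 at 112 ± 6.73, Rgs1 at 65.1 ± 5.30 and Rgs2 at 26.2 ± 6.69 (SD, n = 3). Rgs14, Rgs11 and Rgs3 came next at 13.8, 13.7 and 12.8 TPM, and Rgs2 to Rgs3 formed a run in which each neighbour's range overlapped the next. Rgs12 at 7.63 TPM, Rgs16 at 0.703 and Rgs18 at 0.153 were last and apart from each other. In Foxo1TKO libraries the same members led, with Rgs10 at 431 ± 21.5 TPM, Rgs19 at 102 ± 1.66 and Rgs1 at 35.5 ± 9.42, each apart from the next. Rgs3 came next at 17.5 TPM, then Rgs2, Rgs14, Rgs12 and Rgs16 at 9.14, 9.08, 5.53 and 4.78 TPM with overlapping neighbours, and Rgs11 at 2.14 TPM was lower than all but Rgs18.

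Summed over the 10 members, RGS transcripts came to 643, 594 and 613 TPM in the Foxo1TKO libraries and 518, 488 and 514 TPM in the Foxo1Ctrl libraries. The sum was higher in every Foxo1TKO library. Without Rgs10 the order was the reverse, with 212, 185 and 162 TPM in the Foxo1TKO libraries and 276, 228 and 252 TPM in the Foxo1Ctrl libraries, and again no overlap. Rgs10 thus made up 69.9% ± 3.40 of the summed TPM in Foxo1TKO and 50.3% ± 3.29 in Foxo1Ctrl libraries (SD, n = 3 each). The share of Rgs1 was 5.75% ± 1.45 in Foxo1TKO and 12.9% ± 1.48 in Foxo1Ctrl libraries, and that of Rgs2 was 1.48% ± 0.253 and 5.15% ± 1.18. Rgs16, in spite of its rise, came to 0.767% ± 0.318 of the Foxo1TKO sum, from 0.137% ± 0.0658 in Foxo1Ctrl. Shares did not overlap between genotypes for 7 of the 10 members, all but Rgs3, Rgs14 and Rgs18. As shares of 1 sum they are tied to each other, so that a share can move when the level of its member does not. The 7 include Rgs12, whose TPM overlapped between genotypes, and Rgs19, which was not called. Shares of this sum exist for the members only, so that no value over all genes stands beside the count.

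**Figure D4:**
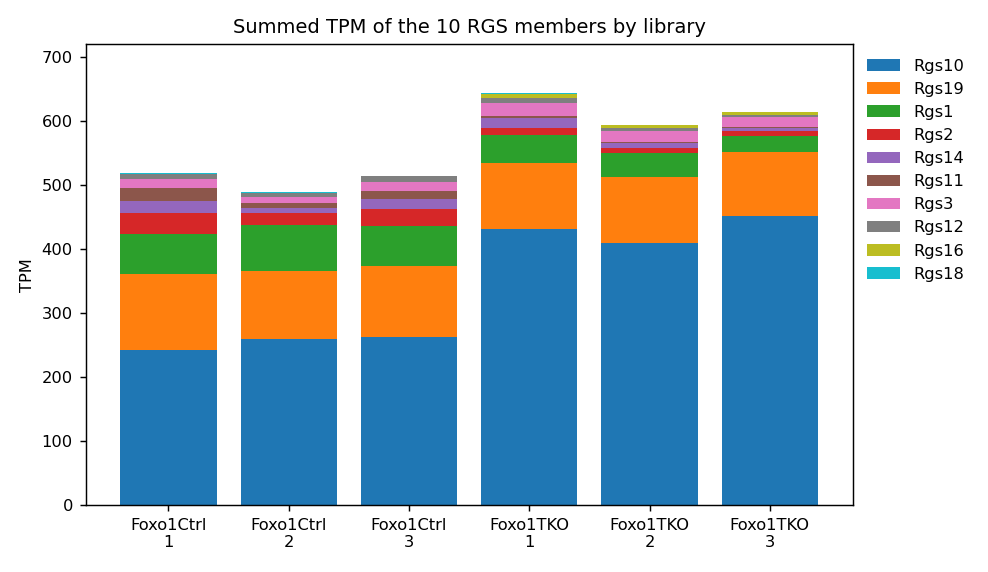
Summed TPM of the 10 RGS members in every library, stacked by member from the highest to the lowest Foxo1Ctrl level. Bars reach 488 to 518 TPM in the Foxo1Ctrl libraries and 594 to 643 TPM in the Foxo1TKO libraries, with Rgs10 (bottom) at 242 to 262 and 409 to 452 TPM.

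Within genotypes, some members varied together from library to library. Over the 6 libraries, deviations of the log2 normalized counts from the genotype means correlated at r = 0.97 for Rgs3 and Rgs16, 0.96 for Rgs2 and Rgs19, and 0.96 for Rgs12 and Rgs14. They ran opposite at r = -0.95 for Rgs10 and Rgs14 and at -0.95 for Rgs10 and Rgs12. These pairs are the most extreme of all pairs of the 9 tested members. Pairs of other genes were not looked at, so that the values need not be a trait of RGS members. They are descriptions over points that share libraries, and deviations within a group of 3 sum to 0.

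The genes around the RGS proteins were counted from lists of the G protein pathway. Like the members, these lists were chosen with earlier results of these data known. Together they held 29 called genes of 71 tested (40.8%, beside 23.0% of all genes tested), Rgs9 included. That number dropped to 16 without Foxo1TKO replicate 2 and to 19 without Foxo1TKO replicate 3. In the same fits the calls over all genes dropped from 3144 to 1590 and to 2135. Upstream stand the receptors. Of 24 Gi-coupled receptors of lymphocytes, 20 were tested, 4 rose and 9 fell, beside 11.1% and 11.8% of all genes tested. Without Foxo1TKO replicate 2 or 3 the counts were 2 and 5, and without Foxo1Ctrl replicate 1 or 3 they were 3 and 6. Over all genes the calls dropped to 1848 and 2166 without these Foxo1Ctrl replicates. S1pr1, the receptor for sphingosine 1-phosphate that lets T cells leave lymph nodes, fell from 8583 ± 2522 normalized counts in Foxo1Ctrl to 274 ± 12.5 in Foxo1TKO libraries (log2 fold change -4.97). Ccr8, a receptor for the chemokine Ccl1, rose from 336 ± 77.6 to 9457 ± 1277 (4.81). The inflammatory chemokine receptors Cxcr3 and Ccr2 fell, with log2 fold changes of -3.17 and -3.14. Ccr9 (2.34) and Ccr6 (1.66) rose as well, and the median over the 20 was -0.51. Cx3cr1 was called higher, with 22.8, 11.4 and 15.02 normalized counts in the Foxo1TKO libraries against 0, 0 and 3.88, but it passed the filter through the Foxo1TKO libraries alone and could not be tested when any of these was left out. Ccr6 was not called without Foxo1TKO replicate 2 or 3 or Foxo1Ctrl replicate 3 (adjusted p of up to 0.0809, edgeR), nor was Cx3cr1 without Foxo1Ctrl replicate 1 or 2 (up to 0.0841, edgeR).

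Of 15 listed G alpha subunits, on which RGS proteins act, 9 were tested and 3 called, beside 23.0% of all genes tested. These were 1 higher and 2 lower, beside 11.1% and 11.8% of all genes. Of the Gq class, Gna15 had 287 ± 66.4 normalized counts in Foxo1Ctrl and 52.3 ± 29.7 in Foxo1TKO libraries, a log2 fold change of -2.43 (adjusted p = 0.00450, edgeR with Benjamini-Hochberg adjustment). Gnaq, of the same class, had 259 ± 18.9 and 82.8 ± 32, a log2 fold change of -1.63 (adjusted p = 0.00834, edgeR with Benjamini-Hochberg adjustment). Both were lower in every Foxo1TKO library. Gna11, the other tested gene of this class, had 667 ± 345 and 543 ± 106 with overlapping libraries and did not pass the test (log2 fold change -0.30, adjusted p = 0.649, edgeR with Benjamini-Hochberg adjustment). Gnas, the Gs subunit, was called higher at a log2 fold change of 0.92, but its libraries overlapped, and the call was lost without Foxo1TKO replicate 2 or 3 or Foxo1Ctrl replicate 1 or 3, with an adjusted p of up to 0.149 by edgeR. Of the Gi class, Gnai2 had 1577 ± 97.1 normalized counts in Foxo1TKO and 1601 ± 56.0 in Foxo1Ctrl libraries (log2 fold change -0.02, SE 0.13, adjusted p = 0.928, edgeR with Benjamini-Hochberg adjustment). Gnai3 had 5787 ± 16 and 8171 ± 477, without overlap, a log2 fold change of -0.50 that passed the adjusted p (0.0270, edgeR with Benjamini-Hochberg adjustment) but not the 1.5-fold limit. Gnai1 was at 0 in every library. No G beta or gamma subunit was called by edgeR among 9 tested of 17 listed (median log2 fold change -0.10) or by DESeq2, where 1 was higher and 2 were lower at an unadjusted p under 0.05 in edgeR. Of 9 other G alpha regulators such as the Gpsm proteins, 7 were tested (median 0.37), and edgeR called 0, with 3 higher at an unadjusted p under 0.05, whereas DESeq2 called 2.

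Receptor kinases and arrestins end receptor signals by another route. Of 8 receptor kinases and arrestins, 6 were tested and 3 fell, beside 11.8% of all genes tested. The median log2 fold change of the 6 was -0.78. Grk2, which phosphorylates active receptors so that arrestin can bind, fell from 1836 ± 459 to 849.8 ± 113 normalized counts (-1.11), Arrb1, an arrestin, by 0.94 on the log2 scale and Grk4 by 0.89. None of the 6 was higher, by edgeR, by DESeq2 or at an unadjusted p under 0.05. Without Foxo1TKO replicate 2 the 3 calls were lost, with adjusted p-values by edgeR of 0.0545, 0.170 and 0.0796. Arrb1 was also lost without Foxo1TKO replicate 3 and Foxo1Ctrl replicates 1 and 3, and Grk4 without Foxo1Ctrl replicate 3. Of 9 proteins that hold an RGS domain without the RGS name, 8 were tested, with a median of -0.76. By edgeR, by DESeq2 or at an unadjusted p under 0.05, 0 were higher. Of the 8, 3 fell, beside 11.8% of all genes tested. These were Arhgef12, a guanine nucleotide exchange factor (log2 fold change -1.85), and the sorting nexins Snx14 (-0.83) and Snx13 (-0.68, called only when Foxo1Ctrl replicate 2 was the library left out, with an adjusted p by edgeR of up to 0.190 without any other). Downstream, 11 of 18 effectors were tested. Of these, 3 were called higher and 3 lower, beside 11.1% and 11.8% of all genes tested. Without Foxo1TKO replicate 2, 1 higher and 3 lower were left. The catalytic subunit of the phosphoinositide 3-kinase that G beta-gamma activates, Pik3cg, rose (1.54), as did its adaptor Pik3r6 (2.78), while its other adaptor Pik3r5 fell (-2.31), as did the Rac exchange factor Prex1 (-1.69) and the adenylyl cyclase Adcy7 (-0.91). The adenylyl cyclase Adcy5 was called higher, with 35.5, 43.9 and 22.5 normalized counts in the Foxo1TKO libraries against 0, 1.14 and 3.88, but it passed the filter through the Foxo1TKO libraries alone and was not tested when any of them was left out. Pik3r6 was not called without Foxo1TKO replicate 2 (adjusted p = 0.0672, edgeR).

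**Figure D5:**
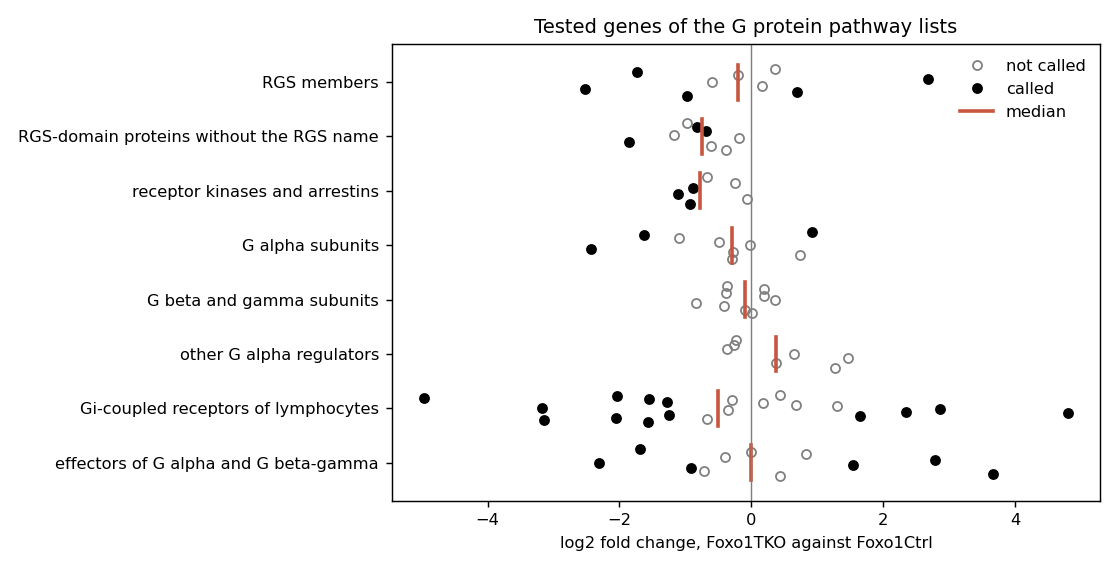
Log2 fold change in Foxo1TKO against Foxo1Ctrl libraries of the tested RGS members and of the tested genes of each G protein pathway list, with called genes as filled points, the others as open points and the median of each list as a red line. Both G beta and gamma subunits and other G alpha regulators hold no filled point, whereas the Gi-coupled receptors run from -4.97 (S1pr1) to 4.81 (Ccr8).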

How the data were processed

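RNA was sequenced from 3 Foxo1TKO and 3 Foxo1Ctrl cultures. Per the submitters' notes and methods, reads were aligned with STAR 2.7.6a to GRCm38 and quantified per gene with RSEM 1.3.1, and reads that fit several loci were shared between them. The deposited files hold RSEM expected counts, TPM and effective lengths (bases) per gene and library, and a table of normalized signal that the authors made with DESeq2. For Rgs12 this signal was lower, relative to the count, where the effective length was longer. Strandedness is not given in the sources used here. Deposited expected counts were rounded and scaled by TMM, and the genotypes were compared with edgeR 4.0.16 (quasi-likelihood, R 4.3.3) and Benjamini-Hochberg adjustment over the 13691 genes with 10 or more counts in 3 or more libraries. Normalized counts are counts divided by the effective library size and multiplied by the mean of those sizes. Alternatives were DESeq2 1.42.0, no filter, effective lengths as offsets, limma 3.58.1 on the deposited signal, a replicate block and leaving out each library. Exact permutation tests ran in scipy 1.17.1. The edgeR script was tested on simulated data. The library totals of 14783890 to 19675447 counts limit the precision of genes with few counts such as Rgs18. Gene positions are from GENCODE M21 and promoter sequences from RefSeq. The members and the gene lists were chosen with earlier results of these data known. Named genes were all members, Foxo1, every Gnai gene, genes whose exons overlap a member's, other RGS-named genes with a library above 3 counts, and up to 4 called genes per pathway list with the largest change, provided that the genotypes did not overlap and the mean normalized count reached 50. Ccr9, Ccr6, Cx3cr1, Gnas, Gna11, Gnb5, Pik3r6 and Adcy5 were named after their values were seen. The CD8 T cell, neutrophil and erythroid marker sums were 5.15 to 8.39, 0.242 to 1.93 and 13.7 to 24.1 CPM in Foxo1TKO and 8.06 to 9.09, 0 to 0.203 and 15.6 to 24.4 in Foxo1Ctrl libraries.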

Additional observations from a re-analysis of the deposited data

How the results depend on the processing

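With DESeq2, without the count filter, with effective length offsets, with limma on the deposited signal and with the replicate block, 5 members were called each time. Over the fits that left out 1 library, the number of called members ran from 3 to 5, that of all called genes from 1590 to 3165, that of called pathway genes from 16 to 30, that of members with shares that did not overlap from 7 to 8, and that of members with effective lengths that did not overlap from 1 to 4. Of 126 member values under an alternative, 115 kept their direction and their side of the threshold, 6 lost the call (Rgs1 and Rgs10 without 1 library) and 5 turned their direction. All 5 were values of Rgs12, at -0.55 and -0.52 by limma with a pseudocount of 1 and 10, -0.53 with effective length offsets, -0.019 without Foxo1TKO replicate 1 and -0.0029 without Foxo1Ctrl replicate 2, where the other fits without 1 library reached 0.40. The cause was not tested. Whether the replicate numbers pair the libraries could not be decided from their deviations, which within a group of 3 sum to 0. Deviations of same-numbered libraries correlated at 0.43, 0.20 and -0.11, and Foxo1TKO replicate 3 correlated best with Foxo1Ctrl replicate 2 (0.30). The paper compared flow cytometry readings of such cultures as pairs, each from 1 experiment. With the number as a block 5 members, 3318 genes and 32 pathway genes were called. Depth limits Rgs18, with at most 16 counts in a library.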
